A study of Mus musculus with 4 samples.

Results

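The T-cell receptor β locus supplies 51 of the 50600 genes counted in primary mouse T cells: 35 variable (Trbv), 2 diversity (Trbd) and 14 joining (Trbj) segments. They were taken as every counted gene whose GENCODE symbol begins with Trbv, Trbd or Trbj followed by a digit. Paired-end RNA sequencing gave 4 libraries, numbered in the labels as biological replicates 1 to 4 of 1 group of T cells from C57BL/6NJ mice. The labels give no genotype beyond the strain, no treatment, no sex and no age, and they link a protocol for differentiating CD4+ T cells. In the headers of all 4 tables the alignment is named for Th0 cells, activation and 24 h. No second group exists, so the questions were which segments contributed to the RNA, in what proportions, and how far the replicates differed.

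A developing T cell in the thymus assembles its β chain gene by cutting and joining DNA: 1 D segment is joined to 1 J segment, and a V segment is then joined to that DJ unit. The transcript is spliced to a constant exon, Trbc1 for the first J cluster and Trbc2 for the second. The join between V, D and J encodes the third complementarity-determining region, the part of the β chain that chiefly contacts the peptide. Each mature cell therefore transcribes 1 productive combination, and a culture of many cells shows a mixture of all of them. Nomenclature by V family (Vβ) predates the Trbv names, and the older numbers given here are RefSeq synonyms.

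The V segments end just after the cysteine that opens the third complementarity-determining region. The last 30 bases are shown for the 4 V segments of highest level per length, and for Trbv26 and Trbv24, which are compared further on. They are 5′ to 3′ on the coding strand (GENCODE vM21 transcripts, mm10), with capitals marking the letters TGTGCCAGC, which encode cysteine, alanine and serine.
Trbv1: cagaaccttgtactgcacctgcagtgcaga
Trbv13-2: catcagtgtacttcTGTGCCAGCggtgatg
Trbv31: ctctggcttctacctctgtgcctggagtct
Trbv13-1: catctttgtacttcTGTGCCAGCagtgatg
Trbv26: agcactgtacctcTGTGCCAGCagtctgtc
Trbv24: agcactgtagctcTGTGCCAGCagtctgta
In the last 40 bases of the transcript, 13 of the 22 V genes and 4 of the 13 V pseudogenes hold TGTGCCAGC on the sense strand, and none of the 35 holds it on the other strand. Over the last 40 bases of all 141704 GENCODE transcripts of that length or more, 0.0494% hold it on either strand. The motif was chosen after the sequences had been read.

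The J and D segments are short enough to show whole. The J segments below are the 2 of highest share, the 2 of largest spread between replicates and the 3 that lack the codon pattern TTN-GGN-NNN-GG, which is capitalised where present. The pattern covers the phenylalanine and the glycines of the motif that closes the third complementarity-determining region. The 2 D segments follow.
Trbj2-7: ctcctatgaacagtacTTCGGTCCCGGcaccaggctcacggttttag
Trbj2-1: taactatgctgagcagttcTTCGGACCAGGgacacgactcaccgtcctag
Trbj2-5: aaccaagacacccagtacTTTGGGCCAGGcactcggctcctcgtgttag
Trbj1-1: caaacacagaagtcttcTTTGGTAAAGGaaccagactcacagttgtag
Trbj1-6: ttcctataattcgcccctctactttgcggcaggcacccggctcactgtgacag
Trbj1-7: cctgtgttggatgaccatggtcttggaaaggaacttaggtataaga
Trbj2-6: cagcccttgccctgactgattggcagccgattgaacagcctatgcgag
Trbd1: gggacagggggc
Trbd2: gggactgggggggc
The pattern is present in 11 of the 14 J segments on the sense strand and in none on the other strand. Over their last 50 bases, 1.60% of all transcripts hold it on either strand. It is missing from Trbj1-6, Trbj1-7 and Trbj2-6. Of the segments without the pattern, GENCODE calls Trbj2-6 a pseudogene and Trbj1-6 and Trbj1-7 genes.

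Replicates 1 to 4 had 60102919, 273136467, 48608896 and 47558517 fragments assigned to genes. Markers of αβ helper T cells were present: all 5 genes of the CD4 T-cell list reached 1 TPM (fragments per exon length, scaled to a common sum) in every library, and their summed level ran from 3761 to 4117 TPM. Of the CD8 list, Cd8a was at 0.839 ± 0.0254 TPM (SD, n = 4) and Cd8b1 at 46.7 ± 3.55. Summed levels of genes of other cell types were 2.08 to 5.10 TPM for 4 B-cell genes, 0.114 to 0.642 for 4 myeloid genes, 0.298 to 0.903 for 3 natural killer genes and 0 to 0.0144 for 2 NKT-cell genes. Csf1r, a macrophage receptor, and Klrb1c, the NK1.1 antigen, were at 0 fragments in every library. Of the 7 listed γδ T-cell genes 5 were matched, with a sum of 2.29 to 3.64 TPM. Among these, Sox13 was at 1.86 ± 0.594 TPM and Trdc at 0.785 ± 0.286 (SD, n = 4). Tcrg-C1 and Tcrg-C4 were at 0 fragments in every library, and Tcrg-C2 had 2 fragments, all in replicate 4. The libraries differed in sex-linked RNA: Xist was at 163, 150, 0.715 and 0.696 TPM in replicates 1 to 4, and the Y-linked gene Ddx3y at 0.0434, 0.0219, 38.8 and 39.3. The part of this in segment shares was not tested.

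Trbv segments together drew 8924, 40043, 7179 and 7603 fragments in replicates 1 to 4. These make 0.0151% ± 0.000619 (SD, n = 4) of each library's total. The level was steady against the constant regions: Trbv fragments were 41.6, 41.2, 40.3 and 42.6% of Trbc1 and Trbc2 fragments. Trbj segments drew 1390, 6648, 1116 and 1132 fragments, and Trbd segments 321, 1360, 208 and 281. A fragment that touched exons of more than 1 gene was left unassigned by the counting, so a fragment spanning a V and a J exon, or a J and a constant exon, is in none of these totals. How many such fragments there were is not known from the counts.

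Fragments were spread very unequally over the V segments, and the 4 highest lay in 3 separate parts of the locus. Trbv1 (Vβ2), the segment at the upstream end (mm10 chr6:40891229-40891885, 2 exons), had 1046, 5107, 1003 and 1072 fragments in replicates 1 to 4. Its share of Trbv fragments was 11.7, 12.8, 13.97 and 14.1%, lowest in replicate 1. Trbv31 (Vβ14), the only V segment downstream of the constant regions and in the opposite orientation (chr6:41557691-41558452, minus strand), had 11.8, 11.4, 11.9 and 11.5%. Its 4 values differed by less than any other V segment's in relation to their mean, with a coefficient of variation (SD over mean) of 2.06%. Trbv13-2 (Vβ8.2, chr6:41121396-41121832) had 8.86, 10.6, 10.9 and 9.64%, and its neighbour Trbv13-1 (Vβ8.3) had 10.1, 8.53, 9.58 and 9.21%. The order of these neighbours was not the same in every library: Trbv13-1 was the higher in replicate 1 and Trbv13-2 in the others.

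The next V segments by mean share were Trbv2 (Vβ4, 9.07% ± 0.675), Trbv3 (Vβ16, 8.85% ± 0.652), Trbv16 (Vβ11, 6.37% ± 0.902), Trbv19 (Vβ6, 5.27% ± 0.499), Trbv13-3 (4.24% ± 0.109) and Trbv15 (Vβ12, 3.76% ± 0.204; all SD, n = 4). Per base of exon, the order of these 6 was Trbv3 (7.85% of the Trbv level), Trbv2 (6.54%), Trbv16 (6.47%), Trbv13-3 (5.03%), Trbv15 (4.10%) and Trbv19 (3.76%). The 10 segments of highest share held 81.5 to 81.8% of Trbv fragments in the 4 libraries. The effective number of V segments, the reciprocal of the summed squared shares, was 12.8, 12.6, 12.3 and 12.5. The replicates thus had nearly the same evenness of V shares although their depth differed.

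**Figure D1:**
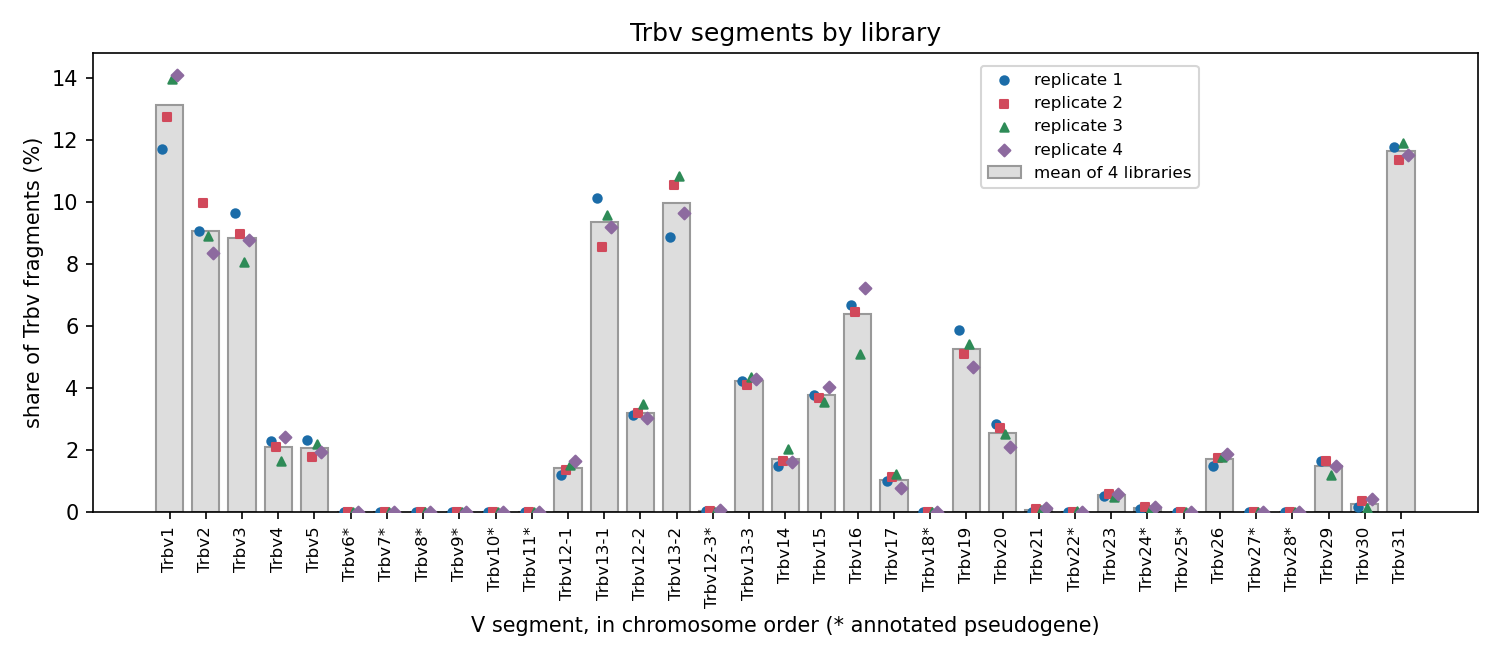
Share of Trbv fragments (%, vertical axis) for the 35 V segments in chromosome order; points are the 4 libraries, bars their mean, and an asterisk marks a GENCODE pseudogene. Trbv1, Trbv31, Trbv13-2 and Trbv13-1 stand highest, and the 6 pseudogenes from Trbv6 to Trbv11 are at 0.

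V exons differ in annotated length, from 260 to 566 bases, so levels of different segments were also compared per base of exon. On that scale Trbv1 had 12.7% ± 1.05, Trbv13-2 11.8% ± 1.06, Trbv31 11.2% ± 0.230 and Trbv13-1 10.3% ± 0.743 of the Trbv level (SD, n = 4). Neighbours in the order mostly overlapped: of 21 neighbouring pairs among the 22 segments with fragments in all libraries, 16 had overlapping ranges over the libraries. The steps without overlap were those below Trbv13-1, Trbv16, Trbv13-3, Trbv17 and Trbv23. Trbv19 has the longest annotated exons, at 566 bases, and dropped from rank 8 by fragments to rank 10 per base.

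Shares were also summed over stretches of the locus that were drawn after the values had been seen, as a description. The 5 genes from Trbv1 to Trbv5 held 34.7 to 35.6% of Trbv fragments. The 6 segments from Trbv6 to Trbv11, all pseudogenes, had no fragment in any library. The 9 segments from Trbv12-1 to Trbv16 held 39.6 to 40.7% over 38.7 kb, and the 14 from Trbv17 to Trbv30 held 12.2 to 13.6% over 119 kb. Segments within a stretch differed widely. Per base of exon, Trbv4 (2.17%) and Trbv5 (2.25%) of the first stretch were below Trbv19 (3.76%) and Trbv20 (3.06%) of the last. Trbv31, on the minus strand downstream of Trbd1, was left out of the correlation that follows, although it had 11.2% per base of exon. Across the 21 V genes on the plus strand, that share had a Pearson's r of 0.652 (Spearman's rho 0.639) with the distance upstream of Trbd1. Without Trbv1, r was 0.486 (rho 0.582). This is a description over segments that share the same 4 libraries and differ in exon length.

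Within families the members were unequal. The Trbv13 family (Vβ8) held 23.2, 23.2, 24.8 and 23.1% of Trbv fragments, with Trbv13-3 below its relatives in every library. The Trbv12 family (Vβ5) held 4.37, 4.58, 5.00 and 4.73%. In it, Trbv12-2 (Vβ5.1) was at 3.21% ± 0.184 and Trbv12-1 (Vβ5.2) at 1.43% ± 0.193 (SD, n = 4). These are the V segments closest in sequence. Trbv13-2 and Trbv13-3 were 90.6% identical over 340 aligned bases, Trbv13-1 and Trbv13-2 were 88.7% identical, and Trbv12-1 and Trbv12-2 were 88.3% identical. Fragments aligning to several places were not counted, so the values of such segments are uncertain. Only 2 of 595 pairs of V segments shared an unbroken identical run of 50 bases or more, Trbv12-2 with Trbv12-3 and Trbv13-2 with Trbv13-3.

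At the low end, the genes Trbv17, Trbv23, Trbv30 and Trbv21 had the smallest shares. Trbv17 (Vβ9) was at 1.03% ± 0.195 and Trbv23 (Vβ20) at 0.544% ± 0.0474 (SD, n = 4). Trbv30 (Vβ18) had 15, 142, 9 and 32 fragments, or 0.168, 0.355, 0.125 and 0.421% of Trbv fragments. Replicates 2 and 4 were therefore above replicates 1 and 3. The exact 95% binomial intervals of replicate 3 (0.0573 to 0.238%) and replicate 2 (0.299 to 0.418%) did not overlap. Of the 25 V segments with any fragment, 14 had libraries whose intervals did not overlap, so Trbv30 is not singled out by this. Trbv21 (Vβ19) had 0, 43, 4 and 9 fragments. For the count of 0 in replicate 1 the exact 95% binomial upper limit of the share was 0.0413%. Such intervals and limits hold for counting error alone, because copies made by PCR are not separate molecules.

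V pseudogenes made up 0.163% ± 0.0576 of Trbv fragments (SD, n = 4). Of the 13, 10 had no fragment in any library. For each of these the exact binomial upper limit of the share, taken as for Trbv21 above, was 0.00921% in replicate 2 and 0.0514% in replicate 3. Trbv24 (Vβ17) was the highest, with 9, 60, 5 and 12 fragments. Trbv12-3 had 3, 17, 0 and 5, and Trbv22 had 0, 2, 2 and 0. Trbv24 differs from Trbv26 at 2 of the 30 bases shown above, C10G and C30A, counted from 1 at the 5′ end with the Trbv26 base first. C10G turns the codon TAC of Trbv26 into the stop codon TAG, in the frame of the cysteine that follows. GENCODE lists Trbv24 as a pseudogene and Trbv29 as a gene, while RefSeq has them the other way round. Trbv29 (Vβ7) had 148, 656, 86 and 113 fragments, well above Trbv24 in each library, and Trbv26 (Vβ3) had 132, 692, 128 and 143.

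Fragments were spread more evenly over the J segments than over the V segments. The effective number of J segments was 12.4, 12.7, 12.7 and 11.5 out of 14, and all 14 had 10 or more fragments in every library. Trbj2-7 (chr6:41543810-41543856), the last of the second cluster, was the highest, with 174, 693, 132 and 168 fragments, or 12.5, 10.4, 11.8 and 14.8% of Trbj fragments. Trbj2-1, the first of that cluster, had 9.81% ± 0.747 (SD, n = 4). The last and first of the second cluster held the top ranks per base of exon as well. Trbj1-6 had 8.52% ± 2.67, Trbj2-6 had 8.48% ± 0.789 and Trbj1-3 had 8.09% ± 1.61. The middle ranks came from both clusters. Trbj2-5 had 7.54% ± 3.32, Trbj2-3 had 7.08% ± 0.923 and Trbj1-5 had 6.88% ± 1.89. Trbj1-4 had 6.27% ± 1.67, Trbj1-7 had 6.22% ± 1.92, Trbj2-4 had 5.26% ± 1.76 and Trbj2-2 had 5.25% ± 1.01. Trbj1-2 (4.50% ± 0.661) and Trbj1-1 (3.70% ± 1.59) were the lowest. J exons are 46 to 54 bases long, so the order per base of exon was much the same: of 13 neighbouring pairs, 12 had overlapping ranges over the libraries, and the exception was the step below Trbj2-7.

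The 3 J segments without the codon pattern ranked 3, 4 and 10 of 14 by share. Trbj1-6, the highest of them, had 135, 773, 79 and 64 fragments. Trbj2-6, the pseudogene, had 105, 587, 91 and 106 fragments and ranked just below it. Trbj1-7 had 122, 284, 60 and 73 fragments. Together the 3 held 26.0, 24.7, 20.6 and 21.5% of Trbj fragments. Without Trbj1-6, which keeps part of the pattern, Trbj1-7 and Trbj2-6 held 16.3, 13.1, 13.5 and 15.8%. The 13 V pseudogenes held 0.0975 to 0.224% of Trbv fragments. The counts do not tell unspliced RNA that runs through the J cluster from spliced receptor RNA, so they are not a measure of which J segments were rearranged.

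**Figure D2:**
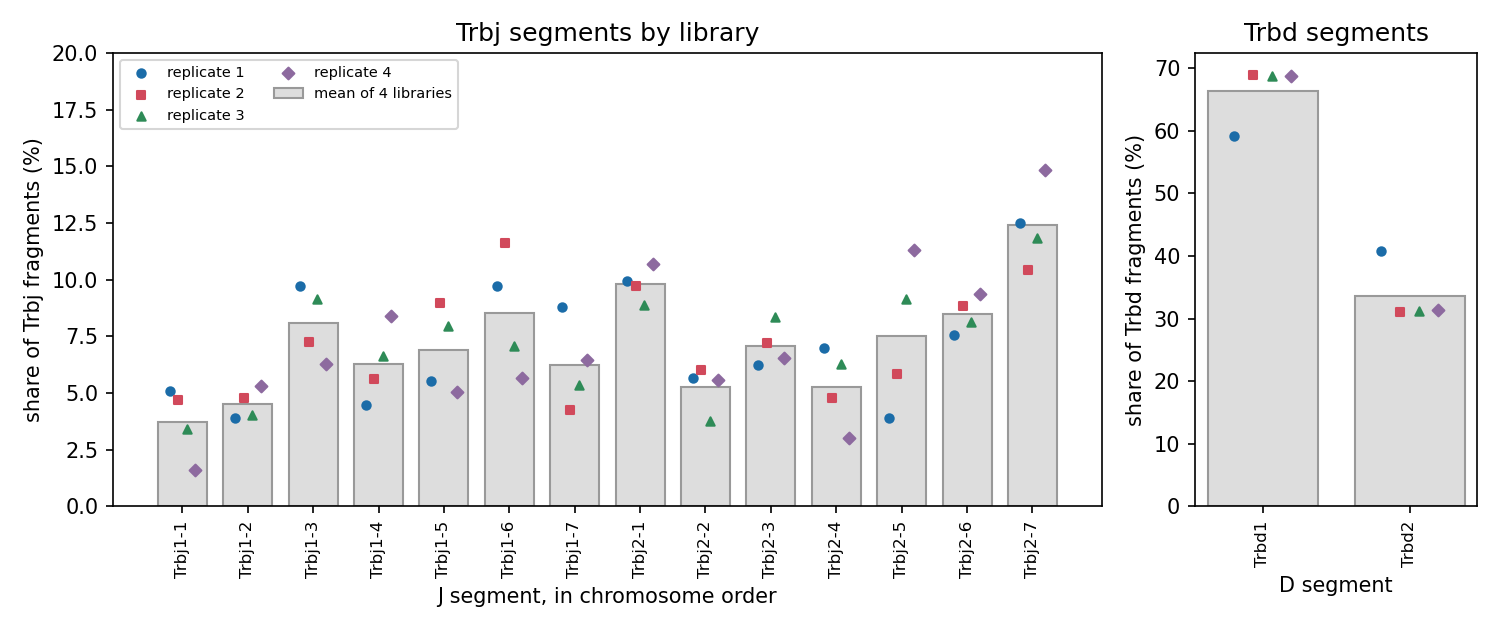
Share of Trbj fragments for the 14 J segments (left, %) and of Trbd fragments for the 2 D segments (right, %), in chromosome order; points are the 4 libraries and bars their mean. Trbj2-7 has the highest mean share at 12.4%, the points of Trbj2-5 lie between 3.88 and 11.3%, and replicate 1 is lowest for Trbd1.

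The shares of several J segments had wide ranges over the replicates. Trbj2-5 had 54, 387, 102 and 128 fragments, or 3.88, 5.82, 9.14 and 11.3% of Trbj fragments. The exact 95% binomial interval of replicate 1 (2.93 to 5.04%) lay below those of replicate 2 (5.27 to 6.41%), replicate 3 (7.51 to 10.98%) and replicate 4 (9.52 to 13.3%). Libraries whose intervals did not overlap were found for 10 of the 14 J segments. Trbj1-1 had 71, 313, 38 and 18 fragments, or 5.11, 4.71, 3.41 and 1.59%. It was highest in replicate 1 and lowest in replicate 4, where Trbj2-5 was lowest and highest. Trbj1-6 was at 9.71, 11.6, 7.08 and 5.65%, and Trbj1-7 at 8.78, 4.27, 5.38 and 6.45%. These 4 segments are described here as values. In its main setting edgeR, which allows for spread between samples beyond counting error, called none of the 14 J segments as variable. It called 0.362% of all genes tested, so a count of 0 among 14 cannot be told from the background. With a common dispersion it called these 4 segments and Trbj1-5 among the J segments, and 6.78% of all genes. Trbj2-5, Trbj1-1, Trbj1-6 and Trbj1-4 had replicates 1 and 2 apart from 3 and 4, the division seen for Xist. Among segments tested, 4 of 14 J, 10 of 21 V and 0 of 2 D segments showed that division in CPM (fragments scaled to library size), in either direction, as did 38.3% of all genes tested. The part of sex-linked differences in these values was not tested.

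The first J cluster, joined to Trbc1, and the second, joined to Trbc2, were close in level. Trbj1 segments drew 656, 3137, 487 and 438 fragments and Trbj2 segments 734, 3511, 629 and 694. The second cluster held 52.8, 52.8, 56.4 and 61.3% of Trbj fragments, with replicates 1 and 2 below 3 and 4. In CPM, 38.3% of all genes tested had that division, in either direction. The second cluster was the larger in 4 of 4 libraries, by 0.34 ± 0.24 on the log2(count + 1) scale (mean ± SD, n = 4). The exact two-sided sign-flip permutation p was 0.125, and 0.125 after Benjamini-Hochberg adjustment over 3 comparisons. Trbc2 exceeded Trbc1 by 0.47 ± 0.02 on the log2(TPM + 1) scale, also in 4 of 4 libraries (exact sign-flip permutation p = 0.125, adjusted 0.125). With 4 libraries that is the smallest p the test allows, so neither could pass 0.05. Trbc1 held 43.6, 44.4, 43.5 and 43.7% of constant-region fragments. The Trbj1 share rests on fewer fragments: its exact 95% binomial interval in replicate 4 was 35.8 to 41.6%, and that of the Trbc1 share 42.96 to 44.4%. Trbc1 and Trbc2 share an identical run of 259 bases, where fragments could not be told apart.

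**Figure D3:**
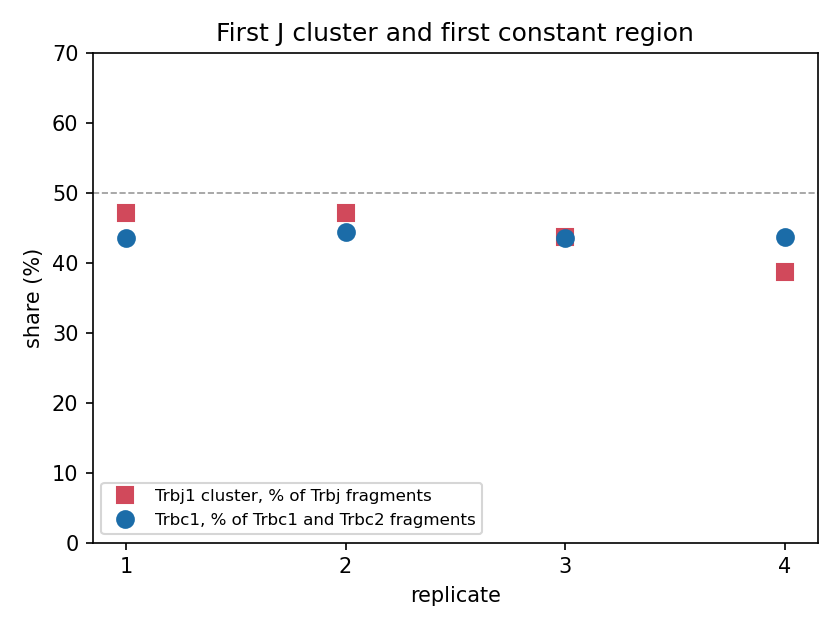
Share (%) of Trbj fragments in the Trbj1 cluster (squares) and share of constant-region fragments in Trbc1 (circles) for each replicate. The dashed line marks equal shares of the first and second cluster or constant region. Trbc1 lies between 43.5 and 44.4% in all 4 libraries, and the Trbj1 cluster between 38.7 and 47.2%.

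The D segments are 12 and 14 bases long. A fragment overlapping 1 of them was counted if it aligned to 1 place and touched no exon of another gene. As for the J segments, these counts are not a measure of which D segments were rearranged. Trbd1, which can join to J segments of either cluster, had 190, 938, 143 and 193 fragments. Trbd2, which lies between the clusters and joins only to the second, had 131, 422, 65 and 88. Trbd1 held 59.2, 69.0, 68.8 and 68.7% of Trbd fragments, lowest in replicate 1. Trbd2 was lower than Trbd1 in 4 of 4 libraries, with a difference of -0.98 ± 0.30 on the log2(count + 1) scale (mean ± SD, n = 4; exact sign-flip permutation p = 0.125, adjusted 0.125). D levels per base were not set against those of V exons.

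Replicates were compared for every gene with edgeR, as the residual deviance of a model with a single mean (trended dispersion, Benjamini-Hochberg adjustment over all genes tested). The filter on low counts passed 37 of the 51 segments: 21 V, 2 D and all 14 J. Of these, 0 were past an adjusted p of 0.05, against 46 of 12712 genes tested (0.362%). At an unadjusted p under 0.05 there were 2, Trbj2-5 and Trbv30, against 704 of all genes (5.54%). The edgeR adjusted p was 0.652 for Trbj2-5 and 0.873 for Trbv30. The 2 segments at an unadjusted p under 0.05 are 5.41% of the 37, near the background. With adjusted calls at 0.362% of all genes, a count of 0 among 37 segments cannot be told from the background. With a common dispersion, edgeR called 6 of the 37 segments (16.2%) and 862 of all genes (6.78%), so the segments' share was then above the background. The 6 were Trbj1-1, Trbj1-5, Trbj1-6, Trbj1-7, Trbj2-5 and Trbv30.

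V and J segments differed in how well the replicates matched. The median residual deviance, the model's measure of spread, was 1.16 over the 21 V segments and 2.44 over the 14 J segments. It was 1.98 over all genes and 2.28 over the 1325 genes in the level range of the J segments. Across segments, Pearson's r of the shares of library pairs was 0.985 to 0.993 over the 35 V segments and 0.437 to 0.777 over the 14 J segments. V segments span a wider range of shares than J segments, which by itself raises r. The median coefficient of variation of the share was 9.47% over the 21 V genes with fragments in every library and 23.2% over the J segments, beside counting errors of 5.63% and 10.05%. For the 10 of these V genes with the fewest fragments, whose counting error of 8.08% is close to that of the J segments, it was 13.6%. The difference between V and J segments was not tested, since segments are not replicates.

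**Figure D4:**
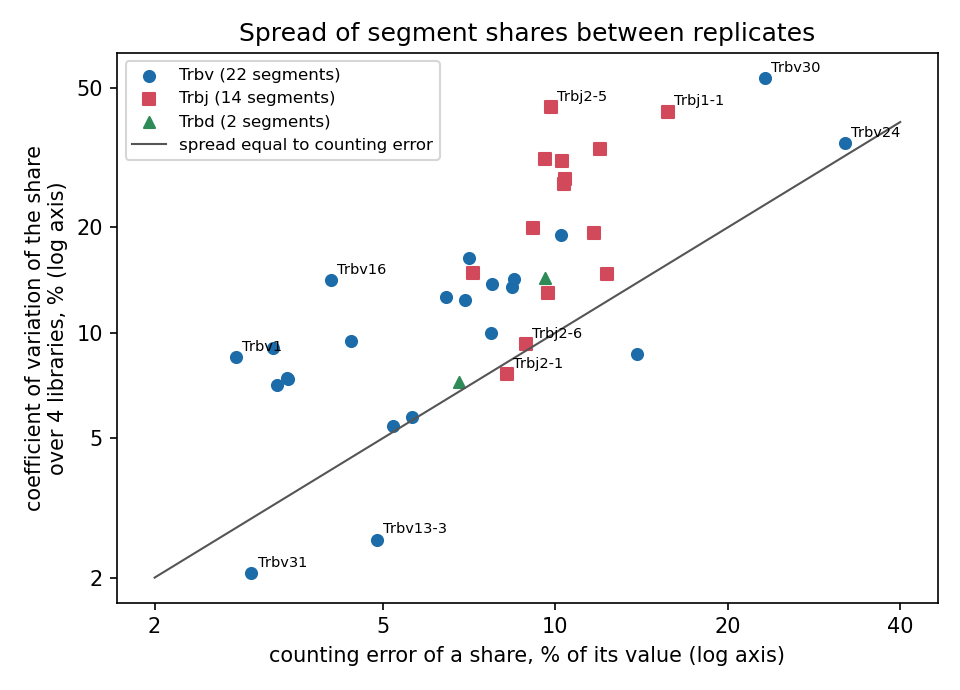
Coefficient of variation of each segment's share over the 4 libraries (vertical, %, log axis) against the counting error expected from its fragments (horizontal, %, log axis); the line marks equality, and segments with a library at 0 fragments are left out. Above the line are 13 of 14 J segments, with Trbj2-5 at 44.0%, and 18 of the 21 V genes with fragments in every library. More than 2 times the counting error was seen for 9 of these J segments and 9 of these V genes. Trbv31 (2.06%) and Trbv13-3 (2.57%) are among the segments below the line.

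The partner genes of the β chain were abundant and steady. The CD3 chains, which carry the receptor's signal, were at 334 ± 20.5 TPM for Cd3d, 226 ± 15.7 for Cd3e, 99.0 ± 4.63 for Cd3g and 131 ± 2.46 for Cd247 (SD, n = 4). The α constant region Trac had 1676 ± 85.0 TPM. None of these 5 genes was past the edgeR threshold for variation, nor were Trbc1 and Trbc2. Only 46 of 12712 genes tested (0.362%) were past it, so this does not set them apart from other genes. Genes that start V(D)J joining in thymocytes were close to the detection limit. Rag1, a subunit of the recombinase, had 0, 3, 4 and 0 fragments, and Rag2, its partner, had 0 in every library. Dntt, which adds bases at the joins, had 0.433 ± 0.186 TPM and the pre-receptor gene Ptcra 0.223 ± 0.154. The 7 end-joining genes of the list, which all cells use to repair breaks, all reached 1 TPM in each of the libraries. Among them Xrcc5 (144 ± 7.03) and Xrcc6 (103 ± 4.89), which encode the Ku proteins, were the highest.

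Trypsinogen genes, a family of digestive enzymes encoded inside the locus, were nearly silent. Of 6 listed, 4 had no fragment in any library. Prss2 had 16, 73, 2 and 2 fragments, or 1.11, 1.13, 0.174 and 0.175 TPM, with replicates 1 and 2 above 3 and 4. The 2 fragments in each of replicates 3 and 4 are below the detection floor of 3. In CPM, 38.3% of all genes tested had that division, which Xist also had, in either direction. Try4 had 0, 7, 3 and 1 fragments. Of 6 flanking genes, Ephb6, which encodes an Eph receptor found in T cells, was at 16.2 ± 0.625 TPM (SD, n = 4), and the other 5 were below 1 TPM in every library.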

How the data were processed

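The authors deposited raw fragment counts per gene. Counting used featureCounts 1.4.6-p4, GENCODE vM13 exons, strand setting 2 and pairs with both mates mapped, per the file headers. Neither multi-mapping fragments nor those touching exons of more than 1 gene were counted. The alignment names carry STAR, whose settings are not given in the sources used here; the build is mm10 per the labels. No label states that the 4 libraries came from separate animals, but sex-linked RNA differed between replicates 1 and 2 and replicates 3 and 4, so they had at least 2 sources. Whether each library is a separate animal is not known, and p-values measure only the spread of these samples.

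Symbols and biotypes came from GENCODE vM21 by identifier (50376 of 50600 matched; all 51 segments). Shares were taken within each library among Trbv, Trbj or Trbd counts; TPM was computed from counts and exon lengths. Library totals of 47558517 to 273136467 fragments set the precision: 3 fragments, the detection floor, are 0.0110 to 0.0631 CPM. Counting errors are the square root of the mean reciprocal count; 95% intervals are exact Clopper-Pearson. edgeR 4.0.16 tested how far replicates varied (R 4.3.3; TMM, filterByExpr with minimum count 10, trended dispersion, deviance against chi-square with 3 degrees of freedom), tested on simulated data. Alternatives used DESeq2 1.42.0 size factors, no filter, a common dispersion, thinning of replicate 2 and leaving out each replicate. Python 3.11.15, scipy 1.17.1 and Biopython 1.88 did the rest.

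Members, lists and tests were chosen with earlier results of these data known. Named are all D and J segments, the 10 V segments of highest mean share and the 4 genes of lowest share. The 3 pseudogenes of highest share and all genes of the related lists that are described are named too. Trbv4, Trbv5, Trbv12-1, Trbv12-2, Trbv20, Trbv26 and Trbv29 were added after their values were seen. Promoter windows were not analysed here, and files that only list other files were not used.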

Additional observations from a re-analysis of the deposited data

Results flagged for a closer look

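Dixon's test at 95% was applied to 42 quantities, each with 1 value per library, and singled out 1 library in 3 of them. By chance about 1 in 20 would be. Trbd1 held 59.2% of Trbd fragments in replicate 1 against 68.7 to 69.0% in the others. The exact 95% binomial interval of replicate 1 (53.6 to 64.6%) overlaps those of replicates 3 (61.98 to 74.98%) and 4 (62.9 to 74.1%) but not that of replicate 2 (66.4 to 71.4%). The Trbv13 family held 24.8% of Trbv fragments in replicate 3 against 23.1 to 23.2% in the others. The depth of replicate 2 was 273136467 fragments, and that of the others 47558517 to 60102919.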

How the results depend on the processing

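The count of segments varying between replicates (0) became 6 of 37 (16.2%) with a common dispersion, against 862 of all genes (6.78%) in place of 46 (0.362%). It stayed at 0 with DESeq2 size factors, without the filter, with replicate 2 thinned and with each replicate left out. Over all genes, leaving out a replicate gave 25 (without replicate 2) to 40 calls. The number of V segments with at least 3 fragments in every library (22) was 20 at a floor of 10 fragments and 22 to 23 with a replicate left out. Shares of the Trbj2 cluster (55.8%) and of V pseudogenes (0.163%) moved by less than 1 SD under every alternative run, among them dropping Trbj1-7 and Trbj2-6 (55.5%), chosen after the data were seen. Counting per base of exon moved the share of 9 of the 17 named V segments by more than 1 SD, and of 0 of the 14 J segments. No paired analysis was possible between groups, because there is 1 group; the comparisons within libraries are paired by library. Depth limits the rare segments most: for Trbv24 the counting error alone is 32.1% of its share.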
